A study of Homo sapiens with 24 samples.

Results

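The 10 genes described here were the ligands WNT5A and WNT5B, the secreted antagonists DKK1, DKK2, DKK3, SFRP1, FRZB and WIF1, the pathway target AXIN2 and the receptor LGR5, of 60279 genes counted. Each was found by its Ensembl identifier in every library, and 6 of the 10 passed a mean of 5 counts over the 24 libraries, as did 19997 genes in all. The genes were chosen by their levels across all 8 groups of these libraries, with DKK1 as the lead, so their values and differences are a description and carry no p-value.

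RNA-seq of polyadenylated RNA was performed in SW872, an established human liposarcoma cell line, stably transduced with retroviral vectors, with 3 libraries in each of 8 groups. EV carried the empty vector. TAZ4SA and YAP5SA carried forms of TAZ and YAP, the coactivators held back by the Hippo pathway, in which alanines replace serines that the LATS kinases phosphorylate. TAZ-CAMTA1 and YAP-TFE3 carried the gene fusions of epithelioid hemangioendothelioma, in which the amino-terminal part of TAZ or YAP is joined to the carboxy-terminal part of a transcription factor, and the CAMTA1 and TFE3 groups carried those factors in full length. Cells of EV, TAZ4SA, TAZ-CAMTA1, YAP5SA, YAP-TFE3 and TFE3 were collected 48 h after reaching confluence, whereas CAMTA1 cells and a further empty vector group, EVsub, were sub-confluent. Each construct was added on top of the TAZ, YAP, TFE3 and CAMTA1 that the cells make themselves, and the cells were transduced and selected as populations.

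Library totals ranged from 19700277 to 35287476 counts. The transcript of the introduced gene was higher than in its control for CAMTA1 (123 ± 8.08 against 22.9 ± 1.23 CPM, counts relative to the scaled library size, in EVsub), for TFE3 (336 ± 19.2 against 119 ± 10.1 CPM) and for YAP5SA (YAP1, 253 ± 4.98 against 128 ± 12.4 CPM; SD, n = 3). In the TAZ-CAMTA1 libraries CAMTA1 was at 144 ± 7.14 CPM against 21.4 ± 2.04 in EV, and in the YAP-TFE3 libraries TFE3 was at 283 ± 49.6 CPM. In the libraries labelled TAZ4SA, WWTR1, the gene for TAZ, was lower than in EV, at 134 ± 0.538 against 204 ± 20.3 CPM, and the name TAZ4SA below stands for these libraries as labelled. The mesenchymal markers VIM and FN1 were abundant in every library (at least 464 and 785 CPM). The mesenchymal markers COL1A2, THY1 and COL1A1 were less abundant, with THY1 down to 10.1 CPM and COL1A1 down to 6.82 CPM. Of 5 markers of mature adipocytes, which summed to between 0.421 and 1.79 CPM, ADIPOQ had 0 counts in all libraries. PLIN1 was present in every library, at 0.361 to 1.24 CPM, and FABP4 had up to 23 counts. Of the other cell types, 3 endothelial markers summed to between 9.96 and 75.8 CPM, 4 epithelial markers to at most 4.14 CPM, and 3 leukocyte markers to at most 2.27 CPM, with PTPRC at no more than 1 count. Among replicates, the third libraries of TAZ4SA, YAP5SA and YAP-TFE3 stood apart from the other libraries of their group, with a chi-square per degree of freedom of 12.7 to 66.1 against 3.02 to 10.3 between the others. The third TAZ-CAMTA1 library (19 and 11.5 against 6.53) and the first TFE3 library (23.9 and 22.1 against 13.3) also lay further out, and some values without these libraries are given for DKK1, SFRP1, WNT5B, WNT5A and AXIN2. Without the first TFE3 library none of the 6 genes tested was called in TFE3 against EV, with log2 fold changes of -0.21 (WNT5B) to 0.08 (DKK1).

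WNT proteins are secreted lipid-modified ligands that bind Frizzled receptors. When they also engage LRP5 or LRP6, the complex that degrades β-catenin is blocked and β-catenin drives transcription with TCF/LEF factors. Secreted antagonists act at different points, since SFRP and WIF1 proteins bind the ligands themselves whereas DKK1 and DKK2 bind LRP5 and LRP6. AXIN2 is a scaffold of the degradation complex and is itself induced by β-catenin, so its transcript is a common readout of the pathway, and LGR5 binds R-spondins, which raise the amount of receptor at the surface. TAZ and YAP reach DNA through TEAD factors, and β-catenin and the Hippo pathway are known to act on each other in mesenchymal cells.

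DKK1 lies on chromosome 10 (GRCh38, chr10:52314281-52318042, plus strand, GENCODE release 44). Its promoter is shown because its level differed most among the genes between the fusions and the hyperactive forms. Promoters of WNT5B are shown beside it. Like WNT5A, WNT5B was above EV in both fusion lines, where DKK1 was below EV. The sequences are 250 bases before and 50 bases after the RefSeq start site (GRCh38.p14), and capitals mark matches on either strand to CATTCC, the core of the TEAD motif, to CTTTGA, the core of the TCF/LEF motif, or to CACGTG, an E-box that TFE3 can bind.
DKK1 promoter, chr10:52314031-52314330, plus strand: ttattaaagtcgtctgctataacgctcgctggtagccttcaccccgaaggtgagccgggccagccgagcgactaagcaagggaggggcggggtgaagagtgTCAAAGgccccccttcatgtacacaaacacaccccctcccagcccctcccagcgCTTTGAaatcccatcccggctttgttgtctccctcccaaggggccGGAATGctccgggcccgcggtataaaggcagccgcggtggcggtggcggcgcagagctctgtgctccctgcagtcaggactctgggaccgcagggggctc
WNT5B promoter, upstream start, chr12:1616806-1617105, plus strand: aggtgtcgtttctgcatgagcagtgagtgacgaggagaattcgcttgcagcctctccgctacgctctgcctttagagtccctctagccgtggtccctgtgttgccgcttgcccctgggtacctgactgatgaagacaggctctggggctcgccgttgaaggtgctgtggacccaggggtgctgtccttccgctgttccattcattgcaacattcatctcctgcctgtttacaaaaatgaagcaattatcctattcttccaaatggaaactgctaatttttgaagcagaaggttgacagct
WNT5B promoter, downstream start, chr12:1628981-1629280, plus strand: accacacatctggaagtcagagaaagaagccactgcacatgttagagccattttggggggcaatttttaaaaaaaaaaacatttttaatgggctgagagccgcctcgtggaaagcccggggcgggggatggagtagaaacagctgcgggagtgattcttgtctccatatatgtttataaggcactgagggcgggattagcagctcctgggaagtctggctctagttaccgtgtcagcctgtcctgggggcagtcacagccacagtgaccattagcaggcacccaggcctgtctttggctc
The DKK1 window held 1 TEAD core, with its first base at -50 from the start site and on the opposite strand, and 2 TCF/LEF cores, at -149 on the opposite strand and at -95 on the strand of the gene. No motif overlapped another, and no E-box was present. Of 35116 promoters of the same length, 14% held the TEAD core, 12.9% the TCF/LEF core and 7.26% the E-box. The table held promoters for 5 of the 10 genes, and those of WNT5A, WNT5B, FRZB and WIF1 held none of the 3 motifs in these windows. Promoters of DKK2, DKK3, SFRP1, AXIN2 and LGR5 were not matched.

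DKK1, which blocks LRP5 and LRP6, took 3 levels over the 8 groups. It was highest in TAZ4SA (45.5, 42.6 and 40.3 CPM), EVsub (40.4, 36.8 and 46.4 CPM), CAMTA1 (40.4, 38.3 and 43.8 CPM) and YAP5SA (45.6, 45.0 and 28.6 CPM). These 4 groups overlapped, and all of their libraries lay above all others. TFE3 (14.4, 17.9 and 14 CPM) and EV (17.2, 16.1 and 12.0 CPM) overlapped at the middle level. The fusions were lowest, with TAZ-CAMTA1 at 4.55, 5.78 and 4.70 CPM and YAP-TFE3 at 3.31, 3.70 and 3.82 CPM, and neither overlapped any other group or the other fusion. Thus the groups with a hyperactive form and the fusions lay on opposite sides of EV.

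Against EV at 15.1 ± 2.75 CPM (SD, n = 3), DKK1 was 2.83-fold higher in TAZ4SA (log2 fold change 1.5 ± 0.15, SE) and 2.62-fold higher in YAP5SA (1.39 ± 0.15). It was 3.02-fold lower in TAZ-CAMTA1 (-1.59 ± 0.17) and 4.18-fold lower in YAP-TFE3 (-2.07 ± 0.17). Set directly beside the hyperactive form of the same coactivator, TAZ-CAMTA1 was 8.53-fold lower than TAZ4SA (-3.09 ± 0.17) and YAP-TFE3 was 11.0-fold lower than YAP5SA (-3.46 ± 0.17). Without the third YAP5SA library the YAP5SA difference from EV was 1.58 ± 0.14, and without the third TAZ4SA library the TAZ4SA difference was 1.54 ± 0.17. Without the third library of each fusion, the differences from EV were -1.55 ± 0.20 in TAZ-CAMTA1 and -2.11 ± 0.20 in YAP-TFE3. The empty vector lines themselves differed by 2.72-fold with density, EVsub being higher than EV (1.45 ± 0.15). By contrast TFE3 differed from EV by 0.03 ± 0.16 and CAMTA1 from EVsub by -0.02 ± 0.15. All the comparisons with EV shared its 3 libraries.

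The summed level of the 5 mesenchymal markers was lower in the groups with high DKK1. Most of the sum came from FN1 and VIM, with medians over the libraries of 2705 and 836 CPM. Medians of COL1A2, THY1 and COL1A1 were 99.4, 21.8 and 19.8 CPM, and single markers are not compared by group here. The sum ranged from 1698 to 3444 CPM in the 4 groups with high DKK1 and from 3698 to 7262 CPM in EV, TFE3, TAZ-CAMTA1 and YAP-TFE3. It was not higher in YAP-TFE3 (3698 to 5159 CPM), where DKK1 was lowest, than in EV (4535 to 5415 CPM). The part of this in the DKK1 values was not tested. In bulk RNA, fewer cells that express a gene and less RNA per cell cannot be told apart. Exons of DKK1 share 227 bases with the antisense gene PRKG1-AS1, which had at most 10 counts in any library, against at least 102 for DKK1.

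**Figure D1:**
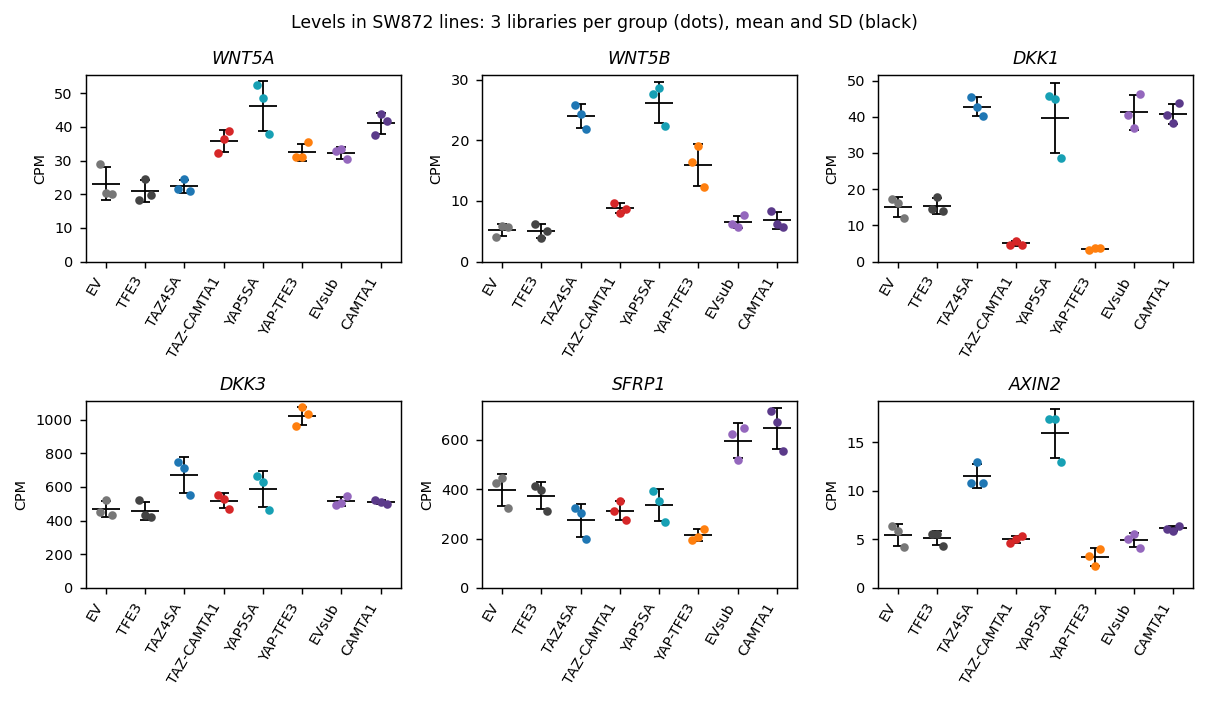
Levels of the 6 genes that passed the count minimum, in CPM (y axes, starting at 0), for each of 3 libraries (dots) in 8 groups (x axes), with the group mean and SD in black. DKK1 lies near 40 CPM in TAZ4SA, YAP5SA, EVsub and CAMTA1, near 15 CPM in EV and TFE3, and at 3.31 to 5.78 CPM in the 2 fusions.

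DKK3 (chr11:11956207-12009769, minus strand), a divergent Dickkopf protein that does not share the LRP binding of DKK1, was far more abundant and followed another order. It was highest in YAP-TFE3, at 965, 1073 and 1035 CPM, above every other library of the series. TAZ4SA followed at 749, 712 and 551 CPM and overlapped YAP5SA at 665, 632 and 465 CPM. EV stood at 454, 525 and 433 CPM, and the TAZ-CAMTA1, EVsub, CAMTA1 and TFE3 means lay between 457 and 517 CPM with libraries that overlapped EV. DKK3 was therefore higher in the fusion line in which DKK1 was lowest. The difference from EV was 1.12 ± 0.12 (log2, SE) in YAP-TFE3, 0.51 ± 0.12 in TAZ4SA (0.31 with total-count scaling) and 0.13 ± 0.12 in TAZ-CAMTA1, and YAP-TFE3 exceeded YAP5SA by 0.80 ± 0.12. In YAP5SA the difference was 0.32 ± 0.12 with overlapping groups, and over 13 alternative settings it ranged from 0.13 (total-count scaling) to 0.46 and passed the genome-wide call in 7. It lost the call without the first (0.29) or the third (0.26) EV library and without the first (0.22) or the second (0.26) YAP5SA library.

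The exons of DKK3 share 5681 of 11958 bases with USP47 on the opposite strand, and whether the counting used strand was not stated, so reads of the 2 genes may be mixed. USP47 was at 131 ± 29.8 CPM in YAP-TFE3 and 96.0 ± 11.3 CPM in EV, whereas DKK3 was at 1024 ± 54.5 and 471 ± 47.9 CPM. The part of such reads in the DKK3 values was not tested. DKK2, which binds LRP6 as DKK1 does, had 45 counts in all 24 libraries together, with at most 5 in a library, and its CPM lay near the floor of 3 counts, which is 0.0850 to 0.152 CPM across libraries. It had 4, 4 and 3 counts in TAZ4SA and 5, 4 and 3 in YAP5SA against 0, 0 and 1 in EV, with 1, 5 and 3 in TAZ-CAMTA1, 2, 2 and 3 in TFE3, 1, 0 and 1 in YAP-TFE3, 2, 0 and 0 in EVsub and 1, 0 and 0 in CAMTA1. These low counts did not pass the count minimum, so no difference between groups is reported for DKK2.

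SFRP1 (chr8:41261962-41309473, minus strand), a decoy that binds WNT ligands, differed by density in the same direction as DKK1. It was highest in the sub-confluent groups, at 715, 672 and 554 CPM in CAMTA1 and 624, 516 and 649 CPM in EVsub. EV stood at 423, 446 and 323 CPM, below every sub-confluent library. YAP-TFE3 was lowest, at 194, 206 and 240 CPM, below EV and below YAP5SA (391, 351 and 265 CPM). TAZ4SA was at 322, 302 and 197 CPM, so that the third library fell among those of YAP-TFE3.

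On the log2 scale SFRP1 differed from EV by -0.90 ± 0.17 in YAP-TFE3, by -0.54 ± 0.17 in TAZ4SA, by -0.34 ± 0.17 in TAZ-CAMTA1 and by -0.25 ± 0.17 in YAP5SA, and EVsub exceeded EV by 0.59 ± 0.17. YAP-TFE3 was below YAP5SA (-0.65 ± 0.17). TAZ-CAMTA1 and TAZ4SA overlapped (0.19 ± 0.17). Some of these values depended on single libraries. The TAZ4SA difference was -0.35 without the third TAZ4SA library and -0.45 without the second EV library, and the EVsub difference was 0.46 without the third EV library, none of which passed the call. Without the third YAP-TFE3 library SFRP1 was at -0.99 ± 0.19 against EV, and without the third YAP5SA library YAP5SA was at -0.10 ± 0.18.

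FRZB (chr2:182833275-182866637, minus strand) and WIF1 (chr12:65050626-65121305, minus strand), which also bind WNT ligands, were near the floor. FRZB had 35 counts over the 24 libraries and at most 6 in a library, and that library, the third of EV, stood beside 0 counts in the other two. WIF1 had 13 counts over all libraries, at most 3 in a library, and 0 in all 3 EV libraries. LGR5 (chr12:71439798-71586310, plus strand) had 4 counts in all, in 4 libraries of TAZ4SA, TAZ-CAMTA1, YAP5SA and YAP-TFE3. These genes and DKK2 (chr4:106921802-107283806, minus strand) did not pass the count minimum. They were left out of the main test, and no difference between groups is reported for them.

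The ligands behaved differently from each other and from DKK1. WNT5B (chr12:1529891-1647212, plus strand), which signals mostly without β-catenin, was at 4.0, 5.90 and 5.77 CPM in EV. It was highest in YAP5SA (27.6, 28.7 and 22.4 CPM) and TAZ4SA (25.8, 24.3 and 21.9 CPM), whose libraries overlapped. YAP-TFE3 came next at 16.5, 19.1 and 12.3 CPM, separate from the groups above and below it. TAZ-CAMTA1, at 9.62, 7.98 and 8.70 CPM, lay above EV but overlapped CAMTA1 at 8.39, 6.25 and 5.74 CPM. Hence all 4 lines with a TAZ or YAP construct had WNT5B above EV, and each fusion had less than its hyperactive form.

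The WNT5B differences from EV were 2.33 ± 0.19 in YAP5SA, 2.21 ± 0.19 in TAZ4SA, 1.62 ± 0.19 in YAP-TFE3 and 0.75 ± 0.19 in TAZ-CAMTA1 (log2, SE). The fusions lay below the hyperactive forms, TAZ-CAMTA1 against TAZ4SA at -1.45 ± 0.18 and YAP-TFE3 against YAP5SA at -0.71 ± 0.17. Without the third YAP-TFE3 library its values were 1.78 ± 0.19 against EV and -0.55 ± 0.18 against YAP5SA. Without the third library of the hyperactive forms, WNT5B was at 2.27 ± 0.21 in TAZ4SA and 2.44 ± 0.20 in YAP5SA against EV. The TAZ-CAMTA1 value no longer passed the call without the first EV library (0.59), the first TAZ-CAMTA1 library (0.67) or the third TAZ-CAMTA1 library (0.76). With density WNT5B gave no call, EVsub being at 6.18, 5.68 and 7.63 CPM and 0.33 ± 0.20 above EV with overlapping libraries.

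WNT5A (chr3:55465715-55490539, minus strand), the close relative of WNT5B, separated the hyperactive forms. Its mean was highest in YAP5SA, at 52.3, 48.5 and 37.8 CPM, whose libraries overlapped those of CAMTA1 and TAZ-CAMTA1. TAZ4SA, at 21.4, 24.4 and 21.0 CPM, overlapped EV at 28.9, 20.4 and 20.2 CPM. TAZ-CAMTA1 (32.3, 36.5 and 38.8 CPM) and YAP-TFE3 (31.1, 30.9 and 35.4 CPM) lay above EV and overlapped each other. WNT5A was therefore higher in TAZ-CAMTA1 than in TAZ4SA but lower in YAP-TFE3 than in YAP5SA. The differences from EV were 0.99 ± 0.14 in YAP5SA, 0.63 ± 0.14 in TAZ-CAMTA1, 0.49 ± 0.14 in YAP-TFE3 and -0.06 ± 0.14 in TAZ4SA (log2, SE). Against the hyperactive forms, TAZ-CAMTA1 was at 0.69 ± 0.14 and YAP-TFE3 at -0.51 ± 0.13.

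Among the sub-confluent groups WNT5A was at 32.9, 33.4 and 30.3 CPM in EVsub and 37.7, 43.8 and 41.7 CPM in CAMTA1, without overlap. The gap of 0.35 ± 0.14 did not pass the call in the fit of all groups and passed it when these groups were fitted alone. EVsub exceeded EV by 0.47 ± 0.14, a value that fell below the call without the second (0.39) or the third (0.38) EV library. The TAZ-CAMTA1 difference from EV also lost the call without the second EV library (0.54), and was 0.57 without the third TAZ-CAMTA1 library. Without the third library of each group YAP5SA was at 1.12 and YAP-TFE3 at 0.42 against EV. The first EV library, at 28.9 CPM, was the highest of its group.

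AXIN2 (chr17:65528563-65561648, minus strand), the β-catenin target of the set, was higher with the hyperactive forms and not with the fusions. It was at 17.4, 17.4 and 13.0 CPM in YAP5SA and at 10.8, 12.9 and 10.8 CPM in TAZ4SA, above all other libraries and separate from each other. EV stood at 6.38, 5.86 and 4.22 CPM. TAZ-CAMTA1, at 4.62, 5.0 and 5.38 CPM, overlapped EV, as did TFE3, CAMTA1 and EVsub with means of 4.91 to 6.12 CPM. YAP-TFE3 was lowest, at 3.28, 2.23 and 4.02 CPM, below every other library. AXIN2 thus shared with DKK1 the order of each hyperactive form over EV and of YAP-TFE3 under it, but not the high level at low density.

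The AXIN2 differences from EV were 1.52 ± 0.18 in YAP5SA, 1.06 ± 0.18 in TAZ4SA, -0.14 ± 0.18 in TAZ-CAMTA1 and -0.79 ± 0.19 in YAP-TFE3, and EVsub differed from EV by -0.18 ± 0.19 (log2, SE). YAP-TFE3 was 4.99-fold below YAP5SA (-2.32 ± 0.18) and TAZ-CAMTA1 2.30-fold below TAZ4SA (-1.20 ± 0.18). Without the third library of each group the differences from EV were -1.0 ± 0.20 in YAP-TFE3, 1.65 ± 0.18 in YAP5SA, 1.10 ± 0.20 in TAZ4SA and -0.20 ± 0.21 in TAZ-CAMTA1. AXIN2 shares 1316 exon bases with an unnamed gene on the same strand, ENSG00000266076, so some reads could have been counted for either.

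**Figure D2:**
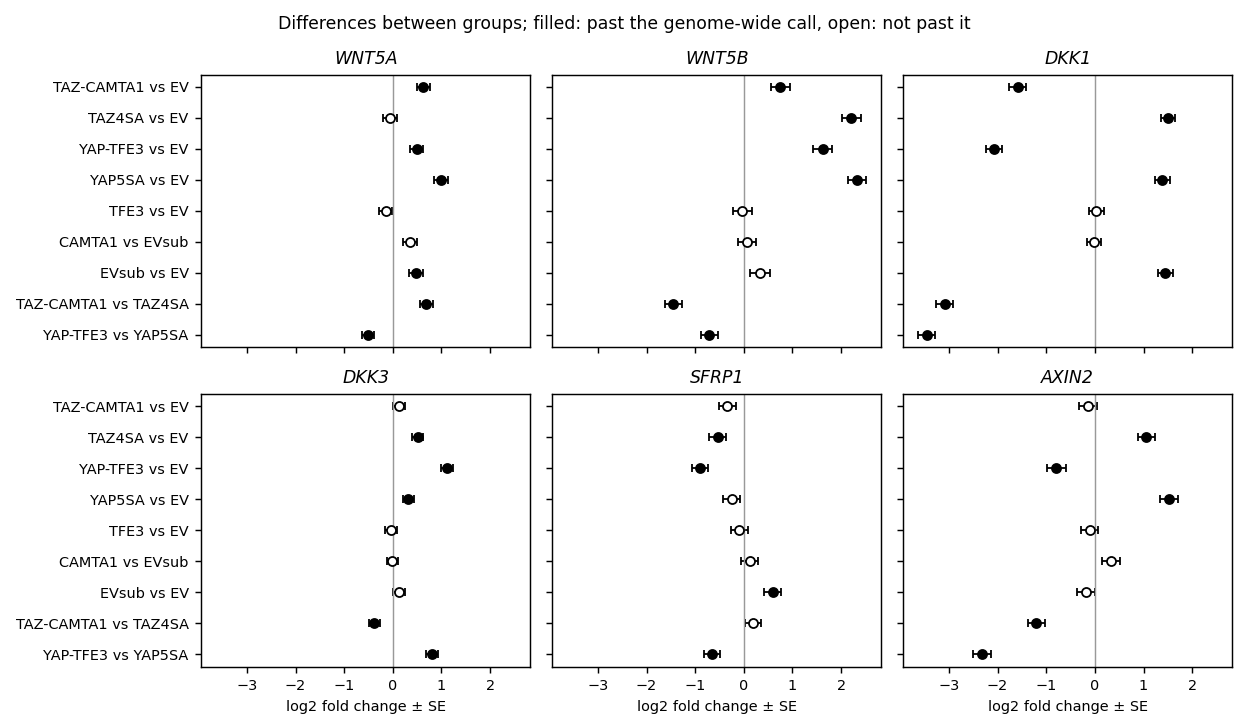
Log2 fold changes (x axes) with their SE (bars) for the 6 genes in 9 comparisons (y axis), from the edgeR fit of all 24 libraries, with filled points past the genome-wide call. DKK1 is positive in TAZ4SA, YAP5SA and EVsub against EV and negative in both fusions, with fusion values of -3.09 and -3.46 against the hyperactive forms.

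Levels were also divided by the merged length of all annotated exons of each gene. That length can exceed the transcript that the cells make, so orders between genes are approximate. On this measure SFRP1 was highest of the set in EV, at 84.0 CPM per kilobase. DKK3 followed at 39.4, DKK1 at 6.79, WNT5A at 3.24, WNT5B at 1.23 and AXIN2 at 1.06. The order of SFRP1 and DKK3 depended on the measure. Merged exons span 11958 bases in DKK3 and 4733 in SFRP1, and in CPM DKK3 (471 ± 47.9) lay above SFRP1 (397 ± 65.2) in EV. In YAP-TFE3 the order per kilobase was DKK3 at 85.7, SFRP1 at 45.1, WNT5A at 4.54, WNT5B at 3.77, DKK1 at 1.63 and AXIN2 at 0.611. In TAZ4SA DKK1 stood at 19.3, above both ligands, whereas in both fusions it lay below WNT5A.

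A gene was called different between groups if its p-value, adjusted by Benjamini-Hochberg over the 19997 genes tested, was under 0.05. Of the 6 genes tested, 3 were called in TAZ-CAMTA1 against EV (WNT5A and WNT5B higher, DKK1 lower), where 4.98% of all genes were called, 3.55% higher and 1.44% lower. In TAZ4SA against EV 5 were called (DKK1, DKK3, WNT5B and AXIN2 higher, SFRP1 lower), where 49.2% of all genes were, 25.1% higher and 24.2% lower. In YAP-TFE3 against EV all 6 were called (WNT5A, WNT5B and DKK3 higher, DKK1, SFRP1 and AXIN2 lower), beside 48.2% of all genes, 25.6% higher and 22.6% lower. In YAP5SA against EV 5 were called, all higher, beside 44.3% of all genes, 22.7% higher and 21.6% lower. Scaling by total counts instead of TMM made this 4 higher (DKK3 no longer called) and 1 lower (SFRP1).

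TFE3 against EV called 0 of the 6, also at an unadjusted p under 0.05 and with DESeq2, beside 0.0350% of all genes, 0.0350% higher and 0% lower. CAMTA1 against EVsub called 0 with edgeR and with DESeq2, and 1 at an unadjusted p under 0.05, beside 1.83% of all genes, 1.26% higher and 0.570% lower. In EVsub against EV 3 were called, WNT5A, SFRP1 and DKK1, all higher, beside 36.8% of all genes, 19.8% higher and 17.1% lower, and 1 without the third EV library. The direct comparisons gave 5 for TAZ-CAMTA1 against TAZ4SA (WNT5A higher, DKK1, DKK3, WNT5B and AXIN2 lower), beside 53.7% of all genes, 26.9% higher and 26.8% lower, and 6 for YAP-TFE3 against YAP5SA (DKK3 higher and the other 5 lower), beside 52.4%, 28.1% higher and 24.3% lower. In the former, DKK3 (-0.38 ± 0.12, groups overlapping) was not called without the first (-0.29) or second (-0.33) TAZ4SA library, nor under total-count scaling, which called SFRP1 higher instead. Since the genes were chosen on these contrasts, the counts describe them and nothing is read from their excess over all genes.

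The rest of the pathway was described with a list of 82 WNT genes other than these 10, of which 64 passed the count minimum. The list was made with earlier results of these data known. Most of the genes named from it below were picked by size of change, so their adjusted p-values are descriptive. With edgeR's quasi-likelihood test, TAZ-CAMTA1 against EV called 7 of the 64 higher and 1 lower (list median log2 fold change 0.11, all genes 0.00). The 7 became 3 without the second EV or the third TAZ-CAMTA1 library and 4 without the third EV or the second TAZ-CAMTA1 library. TAZ4SA called 20 higher and 23 lower (median -0.08, all genes -0.03), YAP5SA 19 higher and 17 lower (0.05, all genes -0.04) and YAP-TFE3 21 higher and 15 lower (0.03, all genes -0.01). EVsub against EV called 10 higher and 17 lower (-0.19, all genes -0.02), and the 17 became 10 without the first and 11 without the second EVsub library. Against the hyperactive forms, TAZ-CAMTA1 had 26 higher and 21 lower (0.18, all genes 0.03) and YAP-TFE3 had 20 higher and 17 lower (0.07, all genes 0.05). CAMTA1 against EVsub called 2 higher (1 without the second EVsub library) and 0 lower (-0.01, all genes -0.01), and TFE3 called 0 with edgeR and with DESeq2 and 2 at an unadjusted p under 0.05. Shares of the 64 called, beside those of all genes, were 12.5% and 4.98% in TAZ-CAMTA1 and 67.2% and 49.2% in TAZ4SA against EV. They were 56.2% and 44.3% in YAP5SA, 56.2% and 48.2% in YAP-TFE3, and 42.2% and 36.8% in EVsub. CAMTA1 against EVsub gave 3.12% and 1.83%, TAZ-CAMTA1 against TAZ4SA 73.4% and 53.7%, and YAP-TFE3 against YAP5SA 57.8% and 52.4%. Calls went in both directions in each comparison with many calls, in the list as among all genes. The difference of the list from all genes was not tested. With total-count scaling the splits of higher to lower became 16 to 30 in TAZ4SA, 15 to 26 in YAP5SA, 16 to 18 in YAP-TFE3 and 8 to 23 in EVsub. All genes shifted the same way under this scaling, to 3355 higher and 7318 lower in TAZ4SA and 3135 and 6840 in YAP5SA. In YAP-TFE3 they were 4319 and 5538, and in EVsub 3109 and 4286.

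**Figure D3:**
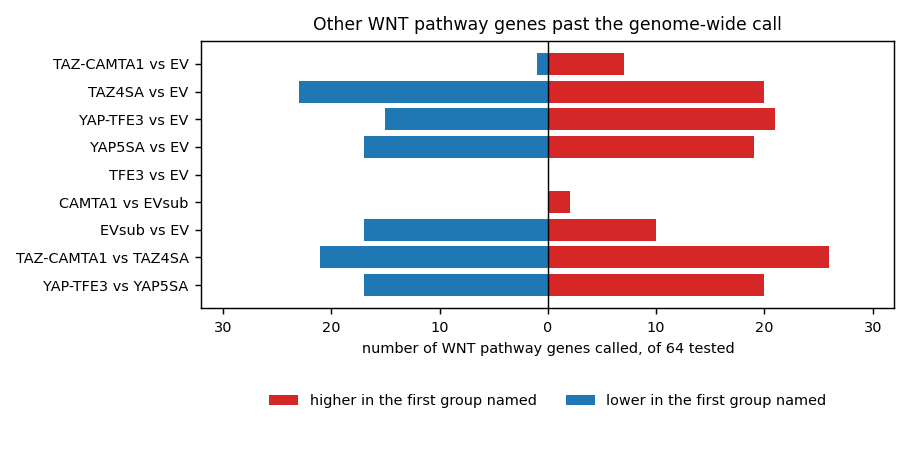
Numbers of the 64 tested pathway genes called higher (red, to the right) or lower (blue, to the left) in the group named at the start of each comparison, with the x axis in genes. TFE3 against EV has none, and TAZ-CAMTA1 against EV has 7 higher and 1 lower.

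Among the other ligands, WNT7A and WNT7B, which activate β-catenin signaling through the RECK and GPR124 coreceptors in vascular tissue, had the widest range. WNT7B was at 0.725, 1.26 and 0.581 CPM in EV, 13.3, 11.8 and 8.37 CPM in TAZ4SA and 7.08, 8.56 and 5.14 CPM in YAP5SA. It was at 7.59, 4.91 and 8.74 CPM in EVsub and higher again in CAMTA1, at 26.1, 17.8 and 12.1 CPM. In YAP-TFE3 it was at 0.0650, 0.157 and 0.0289 CPM, which is 2, 5 and 1 counts. As with DKK1, the hyperactive forms and the sub-confluent groups lay above EV and YAP-TFE3 below it. WNT7B rose in TAZ4SA (3.68 ± 0.33, edgeR adjusted p = 2.5e-09), YAP5SA (2.99 ± 0.34, adjusted p = 1.11e-07) and EVsub (3.04 ± 0.33, adjusted p = 1.32e-06), and in CAMTA1 over EVsub (1.40 ± 0.25, adjusted p = 0.00238). It fell in YAP-TFE3 against EV (-3.33 ± 0.64, adjusted p = 0.000139) and differed by -1.11 ± 0.48 in TAZ-CAMTA1 (adjusted p = 0.209, and 0.0160 with no filter on low counts).

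WNT7A was at 0.483, 0.381 and 0.436 CPM in EV and 7.31, 7.38 and 3.51 CPM in TAZ4SA. It rose in TAZ4SA (3.79 ± 0.36, edgeR adjusted p = 6.11e-09), in YAP5SA (3.32 ± 0.37, adjusted p = 7.92e-08) and in EVsub (1.70 ± 0.40, adjusted p = 0.00207), and fell in YAP-TFE3 (-2.34 ± 0.65, adjusted p = 0.00445). In TAZ-CAMTA1 the difference of -1.64 ± 0.60 was not called (adjusted p = 0.127), whereas it was with no filter on low counts (adjusted p = 0.0185), with DESeq2 (adjusted p = 0.0458) and with only the groups compared (adjusted p = 0.0295). Both ligands were lower in the fusions than in the hyperactive forms, WNT7A at -5.43 ± 0.42 in TAZ-CAMTA1 against TAZ4SA (adjusted p = 2.03e-10) and -5.65 ± 0.46 in YAP-TFE3 against YAP5SA (adjusted p = 3.67e-10), where the fusion libraries held only 4, 3 and 5 counts and 5, 2 and 1 counts. The same contrasts gave -4.79 ± 0.36 (adjusted p = 1.38e-10) and -6.31 ± 0.47 (adjusted p = 8.89e-11) for WNT7B. WNT9A rose in CAMTA1 over EVsub (0.94 ± 0.19, adjusted p = 0.00576), but not past the call without the first CAMTA1 library (0.79, adjusted p = 0.0686) or the second EVsub library (0.84, adjusted p = 0.0553).

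PORCN, the enzyme that attaches the lipid to WNT proteins, rose by 1.01 ± 0.11 in TAZ4SA (edgeR adjusted p = 4.47e-08), 0.68 ± 0.11 in YAP5SA (adjusted p = 1.62e-05) and 0.88 ± 0.11 in YAP-TFE3 (adjusted p = 2.99e-07). It was lower in TAZ-CAMTA1 than in TAZ4SA (-1.02 ± 0.11, adjusted p = 3.22e-08), where its libraries, at 14.8, 14.2 and 14 CPM, lay with those of EV at 14.8, 14.1 and 14.4 CPM. WLS, the carrier of WNT proteins to the cell surface, rose in YAP-TFE3 against EV (0.73 ± 0.09, adjusted p = 4.86e-07) and against YAP5SA (0.85 ± 0.09, adjusted p = 3.76e-08). Of 7 secreted or surface antagonists tested, 3 were higher and 0 lower in YAP-TFE3 against EV (all genes 25.6% and 22.6%). TAZ4SA had 1 higher and 2 lower (all genes 25.1% and 24.2%), and YAP5SA 2 and 1 (all genes 22.7% and 21.6%). The group was not tested. KREMEN2 rose in YAP-TFE3 (1.63 ± 0.21, adjusted p = 8.56e-07). SFRP5, under 20 counts on average and named after its values were seen, rose there (2.00 ± 0.39) and fell in YAP5SA (-5.48 ± 1.17).

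Of 15 receptors tested, 2 were called higher and 9 lower in TAZ4SA against EV, where 25.1% of all genes were higher and 24.2% lower. In YAP5SA 2 were higher and 8 lower (all genes 22.7% and 21.6%). TAZ-CAMTA1 had 10 higher and 2 lower than TAZ4SA (all genes 26.9% and 26.8%), and YAP-TFE3 had 8 higher and 1 lower than YAP5SA (all genes 28.1% and 24.3%). The receptors as a group were not tested. LRP6, the coreceptor that DKK1 blocks, was at 77, 72.6 and 69.8 CPM in EV and 31.9, 31.9 and 34.3 CPM in TAZ4SA. It fell in TAZ4SA (-1.16 ± 0.11, edgeR adjusted p = 6.79e-09) and YAP5SA (-0.83 ± 0.11, adjusted p = 1.36e-06) and rose in YAP-TFE3 (0.42 ± 0.11, adjusted p = 0.00255). LRP6 was thus low where DKK1 was high at confluence, and in EVsub the difference was within its error (0.04 ± 0.11, adjusted p = 0.802). In TAZ-CAMTA1 its rise of 0.41 ± 0.11 (adjusted p = 0.0254) was not called without the second (0.40, adjusted p = 0.0950) or the third (0.38, adjusted p = 0.103) EV library, nor with total-count scaling (0.41, adjusted p = 0.0585), nor without the second (0.40, adjusted p = 0.0812) or the third (0.35, adjusted p = 0.146) TAZ-CAMTA1 library.

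LRP5, the other coreceptor, went up where LRP6 went down, by 0.68 ± 0.10 in TAZ4SA (edgeR adjusted p = 5.01e-06) and 0.79 ± 0.10 in YAP5SA (adjusted p = 6.21e-07), and also rose in YAP-TFE3 (0.69 ± 0.10, adjusted p = 3.39e-06). FZD2, a receptor for WNT5A, was at 23.2, 23.8 and 24.3 CPM in EV and rose in TAZ4SA to 57.2, 56.1 and 48.7 CPM (1.18 ± 0.14, adjusted p = 1.96e-07) and in YAP5SA to 44.3, 52.1 and 50.2 CPM (1.04 ± 0.14, adjusted p = 1.51e-06). In YAP-TFE3 FZD2 fell to 12.7, 14.5 and 20.2 CPM (-0.58 ± 0.14, adjusted p = 0.00138). FZD1 fell in TAZ4SA (-1.80 ± 0.11, adjusted p = 2.12e-12), YAP5SA (-1.33 ± 0.11, adjusted p = 2.84e-10) and YAP-TFE3 (-0.96 ± 0.10, adjusted p = 4.18e-08).

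LGR4, the R-spondin receptor whose relative LGR5 was near the floor in these cells, was at 117, 103 and 87.5 CPM in EV and went in opposite directions with TAZ4SA and its fusion. It fell in TAZ4SA to 31.1, 29.7 and 33.2 CPM (-1.71 ± 0.12, edgeR adjusted p = 3.07e-11) and rose in TAZ-CAMTA1 to 154, 166 and 182 CPM (0.71 ± 0.11, adjusted p = 0.000258). The direct difference was 2.41 ± 0.12 (adjusted p = 1.21e-13). It also fell in YAP5SA (-0.96 ± 0.12, adjusted p = 3.33e-07) and, unlike in the other fusion, in YAP-TFE3 (-0.39 ± 0.11, adjusted p = 0.00659), where the call was lost without the first EV library (-0.29, adjusted p = 0.0610). RSPO4, an R-spondin, rose in TAZ4SA (0.87 ± 0.12, adjusted p = 1.23e-06), YAP5SA (0.69 ± 0.12, adjusted p = 3.19e-05) and YAP-TFE3 (1.21 ± 0.11, adjusted p = 6.06e-09).

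**Figure D4:**
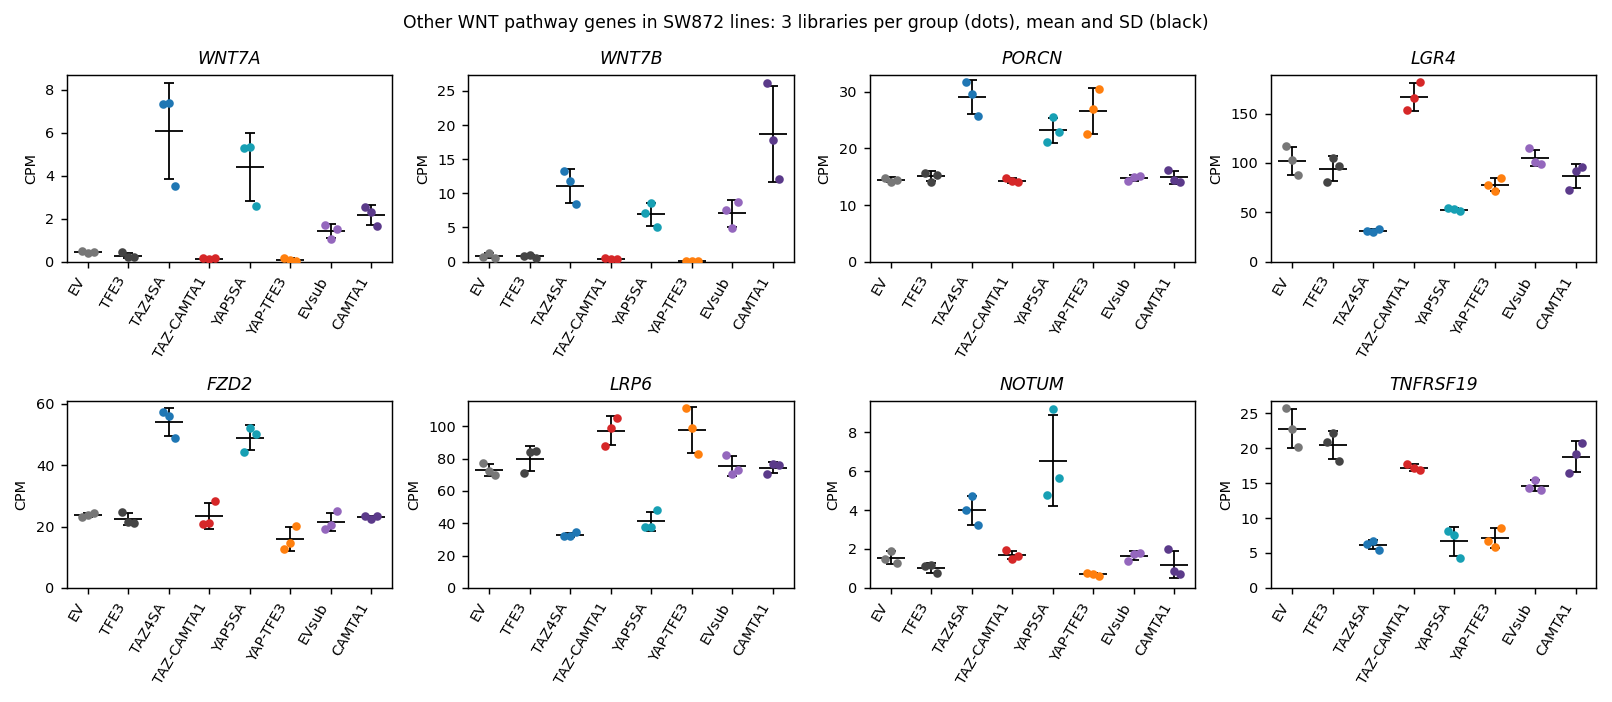
Levels of 8 other WNT pathway genes in CPM (y axes, starting at 0), for each of 3 libraries (dots) in 8 groups (x axes), with the mean and SD in black. WNT7A, WNT7B, FZD2 and NOTUM are high and LGR4 and LRP6 low in TAZ4SA and YAP5SA, and each fusion lies below its hyperactive form in the former 4 genes and above it in the latter 2.

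Of the components inside the cell, CTNNB1, which encodes β-catenin, differed from EV by -0.31 ± 0.08 in TAZ4SA (edgeR adjusted p = 0.00183), -0.14 ± 0.08 in YAP5SA (adjusted p = 0.155, but -0.32 and 0.00101 with total-count scaling) and 0.16 ± 0.08 in YAP-TFE3 (adjusted p = 0.101). AXIN1, the constitutive relative of AXIN2, rose in TAZ4SA (0.67 ± 0.11, adjusted p = 2.85e-05), YAP5SA (0.51 ± 0.11, adjusted p = 0.000748) and YAP-TFE3 (0.42 ± 0.11, adjusted p = 0.00321, and 0.0506 with only the groups compared). TCF7L2, a DNA-binding partner of β-catenin, fell in TAZ4SA (-0.40 ± 0.10, adjusted p = 0.00151), YAP5SA (-0.40 ± 0.10, adjusted p = 0.00176) and YAP-TFE3 (-0.45 ± 0.10, adjusted p = 0.000464). APC, a scaffold of the degradation complex, fell in TAZ4SA (-1.69 ± 0.23, adjusted p = 1.52e-06) and YAP5SA (-1.46 ± 0.23, adjusted p = 1.17e-05), and it shares 230 exon bases with an unnamed gene on its strand.

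The feedback targets that accompany AXIN2 divided. NOTUM, an enzyme that removes the lipid from WNT proteins, followed AXIN2, from 1.48, 1.90 and 1.26 CPM in EV to 4.77, 9.18 and 5.66 CPM in YAP5SA (2.06 ± 0.28, edgeR adjusted p = 1.87e-06) and 3.98, 4.72 and 3.24 CPM in TAZ4SA (1.35 ± 0.29, adjusted p = 0.000423). It fell in YAP-TFE3 to 0.780, 0.722 and 0.607 CPM (-1.15 ± 0.34, adjusted p = 0.00656), a difference of -3.21 ± 0.30 from YAP5SA (adjusted p = 4.02e-09). LEF1 rose in TAZ4SA (1.02 ± 0.22, adjusted p = 0.000473), fell in YAP-TFE3 (-0.77 ± 0.24, adjusted p = 0.00981) and was lower in TAZ-CAMTA1 than in TAZ4SA (-1.76 ± 0.23, adjusted p = 7.62e-07). NKD1 was lower in YAP-TFE3 than in YAP5SA (-1.41 ± 0.13, adjusted p = 5.54e-09). In YAP5SA against EV, where AXIN2 was highest, neither LEF1 (0.28 ± 0.23, adjusted p = 0.344) nor NKD1 (0.02 ± 0.13, adjusted p = 0.921) was called. TCF7 (-0.18 ± 0.13, adjusted p = 0.261), RNF43 (-0.44 ± 0.21, adjusted p = 0.0961) and APCDD1 (-0.17 ± 0.29, adjusted p = 0.669) were not called there either. TNFRSF19, in contrast, fell in the hyperactive forms and in YAP-TFE3, by -1.89 ± 0.17 in TAZ4SA (adjusted p = 2.78e-09), -1.79 ± 0.17 in YAP5SA (adjusted p = 7.41e-09) and -1.69 ± 0.17 in YAP-TFE3 (adjusted p = 1.1e-08). TNFRSF19 was also lower in EVsub than in EV (-0.65 ± 0.16, adjusted p = 0.00276). So were RNF43 (-1.40 ± 0.22, adjusted p = 5e-05) and NKD1 (-0.44 ± 0.13, adjusted p = 0.0108). NKD1 was lower in TAZ-CAMTA1 than in EV (-0.55 ± 0.13, adjusted p = 0.0114), but lost the call without the second or the third TAZ-CAMTA1 library. Of the 8 feedback targets, YAP-TFE3 against EV had 1 higher and 6 lower (all genes 25.6% and 22.6%), TAZ4SA 4 higher and 2 lower (all genes 25.1% and 24.2%) and YAP5SA 2 higher and 1 lower (all genes 22.7% and 21.6%), and the group was not tested. The gene that was higher in YAP-TFE3, named after its values were seen, was NKD2 (3.08 ± 0.43, adjusted p = 2.63e-06), which had 33, 21 and 25 counts there and 1, 4 and 2 in EV. This rise was not particular to YAP-TFE3. NKD2 was also called higher against EV in TAZ4SA (edgeR adjusted p = 1.88e-07) and in YAP5SA (adjusted p = 8.74e-07). Between YAP-TFE3 and YAP5SA it was not called (adjusted p = 0.407). LEF1 and NOTUM share 279 and 148 exon bases with genes on the opposite strand.

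The genes whose log2 CPM was most like that of DKK1 over the 24 libraries, among 11514 protein-coding genes averaging 100 counts or more, were CYP24A1 (Pearson r = 0.976), which inactivates vitamin D, LPAR1 (0.967), a receptor for lysophosphatidic acid, PHF5A (0.958), POLR1E (0.957) and EXOSC2 (0.952). For AXIN2 they were BMP4 (0.949), SIM2 (0.932), LMCD1 (0.931), SEPTIN8 (0.929) and CCDC85C (0.927). The 24 points are 8 groups of 3 libraries, so the coefficients mainly compare group means and are given as a description.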

How the data were processed

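Poly(A) RNA was sequenced as stranded paired-end reads. The deposited values were raw counts per Ensembl gene, not normalized. The authors processed reads with bcbio-nextgen on hg38. Their methods also name Salmon with tximport for gene-level values, but whether that step or a count of aligned reads made the deposited tables, and the use of strand, were not given in the sources used here. Groups came from sample titles, and p-values measure the spread between the study's biological triplicates. The 10 genes and the list of 82 pathway genes were chosen with earlier results of these data known.

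Symbols and exons came from GENCODE release 44, which matched 56104 of 60279 identifiers. The main test was edgeR 4.0.16 (quasi-likelihood, R 4.3.3) with TMM scaling and 1 mean per group, fitted to all 24 libraries, on the 19997 genes averaging 5 counts or more. CPM is relative to the TMM-scaled library size, and the SE is the log2 fold change over the square root of F. With 3 libraries against 3, the smallest exact permutation p is 0.1. Scripts were tested on simulated data. Floors cover counting error only.

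From the pathway list, CTNNB1, LRP5, LRP6, TCF7L2 and AXIN1 were always named, with up to 2 genes called higher and 2 lower per role and comparison by size of change (mean of 20 counts or more). Not all are printed, and some values of a named gene in other comparisons are given beside it. Alternatives were RLE, total-count scaling, no filter on low counts, a mean of at least 20 counts, DESeq2 1.42.0, only the groups compared, the replicate number as a block, and each library left out.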

Additional observations from a re-analysis of the deposited data

How the results depend on the processing

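Scaling by total counts moved the median log2 fold change of all genes by -0.20 in TAZ4SA and -0.18 in YAP5SA against EV and by 0.20 in TAZ-CAMTA1 against TAZ4SA, and none of the 54 values of the 6 genes tested changed sign under it or under RLE size factors. Counts of the 64 pathway genes called moved by over 1.5 times in few cases. Of the genes called lower, TAZ-CAMTA1 against EV went from 1 to 4 with DESeq2, 2 with a mean of at least 20 counts, 4 with no filter on low counts and 5 with only the groups compared. EVsub against EV went from 17 to 11 with no filter, and YAP5SA against EV from 17 to 26 with total-count scaling. Of the 6 genes tested, those called in CAMTA1 against EVsub went from 0 to 1 (WNT5A) with only the groups compared. With each library left out in turn, genes called higher in TAZ-CAMTA1 against EV ranged from 3 (without EV replicate 2 or TAZ-CAMTA1 replicate 3) to 7, and genes called lower from 0 (without TAZ-CAMTA1 replicate 2 or 3) to 2 (without EV replicate 3). Those lower in EVsub against EV ranged from 10 (without EVsub replicate 1) to 15, and those higher in CAMTA1 against EVsub from 1 (without EVsub replicate 2) to 3. Of the 6 genes, those called in EVsub against EV ranged from 1 (without EV replicate 3) to 3. The causes were not tested. The replicate numbers did not pair the libraries, as the correlations of same-numbered libraries ran from -0.236 to 0.216 and no comparison had all 3 above 0.1. With the replicate number as a block, pathway genes called were 8 higher and 1 lower in TAZ-CAMTA1, 19 and 24 in TAZ4SA, and 21 and 15 in YAP-TFE3 against EV, and the counts among the 6 genes stayed at 3, 5 and 6. Depth limited DKK2, FRZB, WIF1 and LGR5, which lay near the floor.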
